A study of Rattus norvegicus with 3 samples.

Results

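RNA levels of 80 cell cycle and DNA replication genes were read in rat adrenal medulla after 7 days in the cold (1 array) and after 1 day in the cold (2 arrays, a and b). The adrenal medulla is the core of the adrenal gland, whose chromaffin cells release adrenaline and noradrenaline when the animal is stressed. The samples are total RNA from rats, with 1 single-colour short oligonucleotide array per sample, and the labels give no strain, sex or age. Unexposed rats were not analysed here, and the 7-day array is therefore set against the 1-day arrays. Whether arrays a and b hold RNA of different animals is not in the labels, and their spread could be a technical one.

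The 80 genes were chosen by their names, out of 14217 genes with a probe set of 1 annotated symbol. They are the cyclins A, B, D and E, the cyclin-dependent kinases (Cdk) and their inhibitors (Cdkn, with Cdkn1c left out), the E2F factors, the MCM, ORC, RFC and RPA proteins and DNA polymerases alpha and delta. To these were added Mki67, Top2a, Pcna, Bub1, Bub1b, Aurka, Aurkb, Cdc20, Tyms and Rrm1. They have 117 probe sets, and each gene was represented by the probe set with the highest mean over the 7-day array and 1-day array b. Of the 80, 60 had a mean level at or above the median of all probe sets (an intensity of 759), and 20 were dimmer. Over all genes, 9252 of the 14217 passed that filter. Intensities of different probe sets are not comparable as RNA amounts, so each gene is compared only with itself. The sums over marker lists given below are the exception and are no RNA amounts.

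A dividing cell passes from G1, where D cyclins with Cdk4 and Cdk6 release E2F factors from the retinoblastoma protein, into S phase, where DNA is copied, and on through G2 to mitosis. Before S phase the origin recognition complex (ORC) marks origins and loads the MCM helicase. At the fork, RPA coats single strands, RFC loads the sliding clamp PCNA, and polymerases alpha and delta make the new strands. The genes of S phase are known targets of E2F, and many genes of G2 and mitosis carry a CHR element with CCAAT boxes. Chromaffin cells of adult rats divide rarely, and the gland also holds cells of the cortex, vessels, nerves and blood.

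Words of E2F sites were more frequent in promoters of these genes than in rat promoters at large, and most frequent in the MCM group. RefSeq promoters of build GRCr8, from 250 bases before to 50 bases after the gene start, were found for 62 of the 80. An E2F word (TTTCGCGC or TTTGGCGC or TTTCCCGC or TTTGCCGC, on either strand) stood in 14 of 62, or 22.6%, against 2.25% of 27457 rat promoters. Of the 8 MCM promoters found, 6 held one. The CHR word TTTGAA stood in 4 of 6 promoters of the proliferation and mitosis genes, though in 11 of all 62 (17.7%), against 18.1% of all promoters. CCAAT stood in 51.6% of the 62 against 37.7% of all, and the GC box GGGCGG in 69.4% against 34.9%, both words counted on either strand. A match is a description of letters, not a bound site. The 5 promoters below are shown because they hold the arrangement of each class: Rpa2, the member furthest above both 1-day arrays among those above the filter, with an E2F word 8 bases after its start; Mcm5 and Mcm6, with E2F words matching on both strands at overlapping positions; Cdk1, with E2F and CHR words together; and Cdc20, with CHR between CCAAT boxes. Capitals mark the matched words.
Rpa2 (chr5:150260522-150260821, + strand): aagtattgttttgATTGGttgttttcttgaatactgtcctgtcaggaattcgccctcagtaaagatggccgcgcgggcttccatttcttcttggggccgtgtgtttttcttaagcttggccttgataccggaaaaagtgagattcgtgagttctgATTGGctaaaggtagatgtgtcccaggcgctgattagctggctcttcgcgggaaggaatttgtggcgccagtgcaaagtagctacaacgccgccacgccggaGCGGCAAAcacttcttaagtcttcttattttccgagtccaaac
Mcm5 (chr19:13488563-13488862, + strand): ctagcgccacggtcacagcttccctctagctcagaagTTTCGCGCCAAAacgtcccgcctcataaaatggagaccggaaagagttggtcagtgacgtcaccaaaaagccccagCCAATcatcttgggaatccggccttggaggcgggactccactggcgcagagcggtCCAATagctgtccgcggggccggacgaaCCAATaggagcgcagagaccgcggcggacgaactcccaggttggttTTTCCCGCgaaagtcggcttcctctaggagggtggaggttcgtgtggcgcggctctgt
Mcm6 (chr13:42404303-42404602, - strand): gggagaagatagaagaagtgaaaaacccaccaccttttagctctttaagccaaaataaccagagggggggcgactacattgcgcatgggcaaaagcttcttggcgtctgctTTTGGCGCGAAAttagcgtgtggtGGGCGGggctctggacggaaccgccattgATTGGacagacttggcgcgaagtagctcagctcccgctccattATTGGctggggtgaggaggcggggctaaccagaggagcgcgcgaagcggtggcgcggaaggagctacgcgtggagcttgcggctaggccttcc
Cdk1 (chr20:19265043-19265342, + strand): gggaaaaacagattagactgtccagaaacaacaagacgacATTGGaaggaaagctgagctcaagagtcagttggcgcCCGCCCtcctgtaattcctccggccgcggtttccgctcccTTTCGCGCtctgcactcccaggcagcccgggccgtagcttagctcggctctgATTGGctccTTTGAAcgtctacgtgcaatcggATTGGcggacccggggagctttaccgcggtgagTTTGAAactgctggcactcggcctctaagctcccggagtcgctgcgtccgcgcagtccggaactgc
Cdc20 (chr5:137255750-137256049, - strand): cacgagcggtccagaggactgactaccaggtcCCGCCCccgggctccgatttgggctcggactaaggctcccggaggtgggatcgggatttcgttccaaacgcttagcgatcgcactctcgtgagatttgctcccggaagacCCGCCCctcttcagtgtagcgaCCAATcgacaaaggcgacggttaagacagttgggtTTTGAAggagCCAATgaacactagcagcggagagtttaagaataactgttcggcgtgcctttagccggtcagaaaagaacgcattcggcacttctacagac

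**Figure D1:**
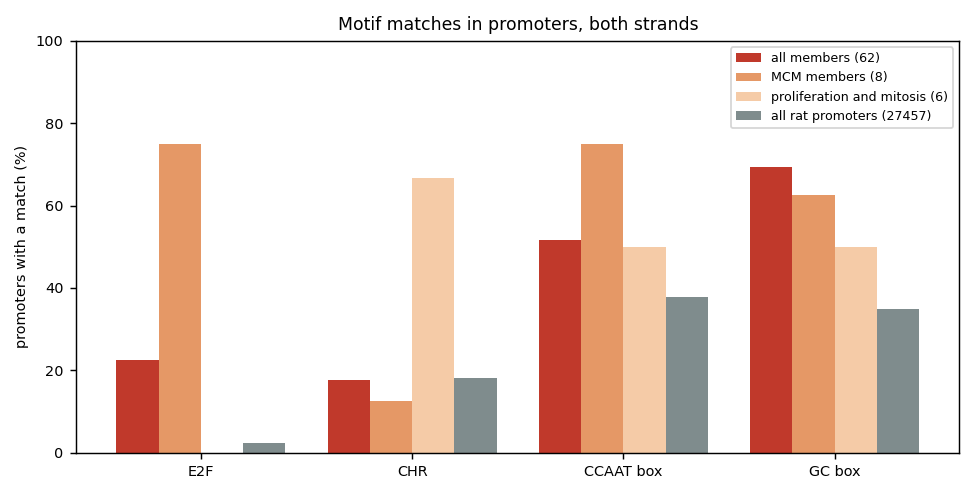
Share of promoters (%, bars from 0) with each motif for all members with a promoter (62), the MCM members (8), the proliferation and mitosis members (6) and all rat promoters (27457). The E2F word is at 22.6% in members and at 2.25% in all promoters, while the CHR word is at 17.7% and 18.1%.

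The 1-day arrays did not agree on these genes, and this bears on every value below. The 7-day array differed from 1-day array b with an SD of 0.49 (log2) over the 80 members, and 1-day array a from b with an SD of 1.27. Over all genes these SDs were 0.83 and 1.83. Above the filter they were 0.33 and 1.02 for members, against 0.33 and 1.27 for all genes. Of the 80, 61 read closer to 1-day array b on the 7-day array than the 1-day arrays read to each other, which over all genes held for 83%. Above the filter this was 44 of 60, against 85%. The Spearman correlation over the members was 0.726 for the 7-day array with 1-day array a, 0.97 for it with 1-day array b, and 0.745 for the 1-day pair, all on a shared set of probes. The 3′ to 5′ beta-actin ratio, which climbs when RNA is degraded, was 8.87 on the 7-day array, 231 on 1-day array a and 6.11 on 1-day array b. The median intensity of all probe sets was 675, 1583 and 593 in that order. Array a read higher than b in 49 members and lower in 31, against 58.1% and 41.9% of all genes. Above the filter it was higher in 34 and lower in 26, against 46.7% and 53.3%. By level, array a read higher than b in 13 of the 16 members with a mean under 500 and in 4 of the 11 members above 5000, where all genes gave 88.2% and 24.6%. With 1-day array a set against the other arrays, limma called 20 members higher and 13 lower on it at an adjusted p under 0.05, where 31.7% and 30.7% of probe sets were called. These 2 counts are of the 60 members above the filter, with 1 probe set per gene. The 2 shares are of all 15521 probe sets tested, so the balance of higher and lower members cannot be read against them. The like comparison over genes above the filter is the 34 higher and 26 lower members, against 46.7% and 53.3%. Since the 1-day arrays did not agree, values against both are given with the value against 1-day array b alone. That value compares only the 7-day array and b and carries no test. The part of RNA quality in these differences was not tested.

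As a group, the cell cycle and replication genes read nearly alike on the 7-day array and 1-day array b. Their median log2 difference (7-day minus 1-day b) was 0.01, with 41 higher and 39 lower, and the median over all 14217 genes was 0.04, with 53.8% higher and 46.2% lower. With each array centred on its median 22 were higher and 58 lower (median -0.17), against 35.5% and 64.5% of all genes, and above the filter 13 and 47, against 24.3% and 75.7%. Among the 60 above the filter the median was -0.05 and the SD 0.33, against -0.01 and 0.33 for all genes above it. Of these 60, 51 lay within 0.5 of 1-day array b on the log2 scale, and 88.9% of all genes above the filter did. Relative to 1-day array a the median over the 80 was -0.44, with 27 higher (43.1% of all genes, whose median was -0.24), and this direction turned with every other scaling. It was 0.31 with 46 higher on quantile normalisation (54% of all genes), 0.77 with 63 higher on centring (72.4%) and 0.31 with 46 higher with the intensity trend removed (54.2%). In limma's test of the 7-day array against both 1-day arrays 0 of the 60 members passed at an adjusted p under 0.05, and 0% of the 15521 probe sets tested did. At an unadjusted p under 0.05 there were 0 members, and 70 probe sets in all (0.451%). The lowest unadjusted p of a member in limma was 0.241, for Mki67.

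By position alone, 15 of the 80 read above both 1-day arrays on the 7-day array and 27 below both, where all genes gave 22.7% and 25.8%. Of the 60 above the filter, 11 were above both and 22 below both, where all genes above it gave 25.5% and 24.1%. Centring each array on its median lowers every 7-day difference from 1-day array b by 0.18 (log2) and puts the median of all genes at -0.15. It gave 17 members above both and 12 below both, where all genes gave 22.8% and 14.8%. Quantile normalisation gave 22 and 19, where all genes gave 28.3% and 24.3%. The balance of genes above and below both turned with the scaling in the members and in all genes alike. Under all 4 scalings 9 members stayed above both (10.9% of all genes) and 9 below both (11.5%). Of those above the filter, Ccne1, Cdkn3, Orc2, Orc3, Rpa1 and Rpa2 stayed above both (6 of 60, with 9.35% of all genes above it). Those that stayed below both were Ccnb1, Cdk10, Cdkn2c, E2f1, Mcm4 and Mki67 (6 of 60, with 6.07%). E2f1 is below the filter's intensity on both the 7-day array and 1-day array b and passed it only through array a, so its place below a was favoured by the filter. The same holds for the passing of E2f2 and Orc6. Ccnb1 was below that intensity on the 7-day array (540.1) and just above it on 1-day array b (775). Array a (1760.4) lifted its mean over the filter, so its place below a was favoured as well. Of the 80, 39 changed place against the pair with at least 1 scaling and 38 changed sign against array a, so places against array a given below are those of the deposited scaling. A difference of at least 2-fold from 1-day array b was seen in 4 of 80, against 14.8% of all genes. They were E2f8 and Tyms, higher, and E2f7 and Mcm10, lower. All were below the filter, and of the 60 above it 0 reached 2-fold, against 1.31%. A difference of at least 1.5-fold beyond both 1-day arrays in the same direction held for Rpa2, which was higher (2.5% of all genes and 0.54% of those above the filter), and for Cdk10, E2f7 and Mcm8, which were lower (6.79% and 1.68%).

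**Figure D2:**
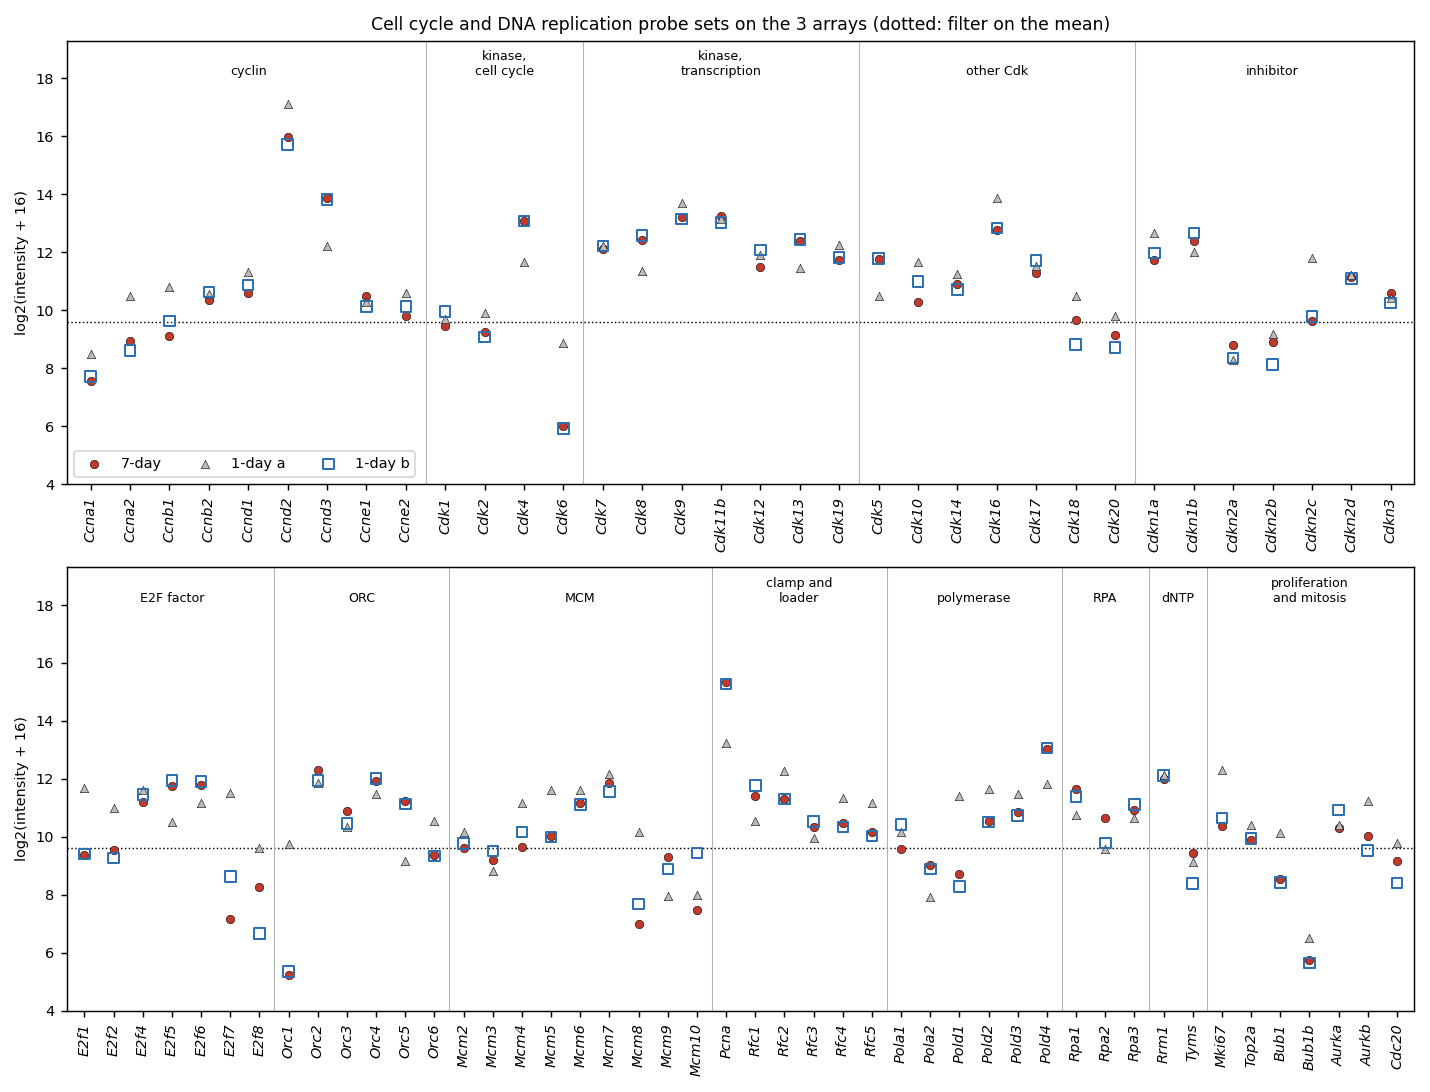
Log2(intensity + 16) of the 80 members on the 7-day array (circles), 1-day array a (triangles) and 1-day array b (open squares), by role, with the filter as a dotted line. The circles lie on or near the squares for most members, and the triangles stand apart, for example for Pcna and Mki67.

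The D cyclins, which drive G1, differed in sign. Ccnd1 read 1546 at 7 days, against 2562 and 1846 on 1-day arrays a and b. Ccnd2 read 64747 on the 7-day array, against 143168 on 1-day array a and 53586 on 1-day array b. Ccnd3 read 14829 at 7 days, against 4704 and 14372 on 1-day arrays a and b. On the log2 scale these were -0.25, 0.27 and 0.05 from 1-day array b, so Ccnd1 was below both 1-day arrays, Ccnd2 between them and Ccnd3 just above both, though below 1-day array b (-0.14) with median centring. All 3 Ccnd1 probe sets read below 1-day array b, by -0.01 to -0.39. The probe set at -0.39 read 1181 at 7 days, against 959 and 1547 on 1-day arrays a and b, and so lay between them. Their kinase Cdk4 read 8707 on the 7-day array, against 3264 on 1-day array a and 8626 on 1-day array b, the same as 1-day array b within 0.01 (log2). Cdk6, the other partner of D cyclins, was dim, with 47.9 at 7 days, against 456 and 44.3 on 1-day arrays a and b, and its sign turned with each scaling.

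Among the other cyclins and their kinases, the mitotic pair read lower and the rest were mixed. Ccne1, of the G1 to S step, read 1428 on the 7-day array, against 1230.2 on 1-day array a and 1108 on 1-day array b, above both. Ccne2, named after its values were seen, read 865 at 7 days, against 1526 and 1097 on 1-day arrays a and b, below both. Cdk2, the partner of cyclins E and A, was below the filter with 593 on the 7-day array, against 947 on 1-day array a and 524 on 1-day array b; its difference of 0.17 from 1-day array b turned to -0.04 with quantile normalisation, and its other probe set stood at -0.86. Ccna2, of S and G2 phase, was below the filter as well, with 478 at 7 days, against 1412 and 374 on 1-day arrays a and b. The mitotic pair Ccnb1 and Cdk1 stood at -0.51 each, and the second Ccnb1 probe set, below the filter, at -2.80, which put the mean of its probe sets at -1.65. Ccnb1 read 540.1 on the 7-day array, against 1760.4 on 1-day array a and 775 on 1-day array b, and Cdk1 read 677 at 7 days, against 807 and 973 on 1-day arrays a and b, so that both were below both 1-day arrays. Ccnb2 (named after its values were seen) was likewise below both, at -0.29 from 1-day array b. For these 3 genes the difference from 1-day array b kept its sign with each of the 3 scalings tried, from -0.22 to -0.69, but against array a Cdk1 and Ccnb2 turned higher with all 3. In limma, with both 1-day arrays, Ccnb1 was at -1.09 ± 2.11 and Cdk1 at -0.38 ± 2.44 (log2 ± SE, adjusted p = 1.00 each). The SE is the spread that limma fitted over all probe sets of that intensity, with 1 residual degree of freedom for each, from the 1-day pair. Ccna1, of the germ line, was dim and stood at -0.15. The 9 cyclins as a group had a median of -0.15, with 4 higher and 5 lower than 1-day array b.

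Genes of proliferation and mitosis followed no single direction against 1-day array b, and 0 of 7 read higher than array a (median -0.75), though 4 of 7 did with each other scaling. Mki67, the standard marker of cycling cells, read 1295 on the 7-day array, against 4999.8 on 1-day array a and 1598 on 1-day array b. It was below both 1-day arrays, at -0.30 from 1-day array b and -1.94 from 1-day array a, and limma put it at -1.12 ± 0.95 (log2 ± SE, adjusted p = 1.00). Aurka, a spindle pole kinase, read 1258 at 7 days, against 1346 and 1929 on 1-day arrays a and b, also below both and only slightly below a. Top2a, the topoisomerase of dividing cells, read 928 on the 7-day array, against 1333 on 1-day array a and 971 on 1-day array b, within 0.06 of 1-day array b, and its other probe set, below the filter, stood at 0.40. Opposed to these, Aurkb, the kinase of the chromosomal passenger complex, read 1015 at 7 days, against 2389 and 719 on 1-day arrays a and b, which is 0.49 above 1-day array b but below array a. The checkpoint kinase Bub1 (359.7 on the 7-day array, against 1112 on 1-day array a and 327 on 1-day array b) and Cdc20, an activator of the anaphase-promoting complex (564 at 7 days, against 864 and 325 on 1-day arrays a and b), were below the filter. The difference of Bub1 from 1-day array b was 0.13, and -0.24 with quantile normalisation. Bub1b, a checkpoint kinase of the same family, was near the bottom of the scale, with 38.2 on the 7-day array, against 75.3 on 1-day array a and 33.9 on 1-day array b. The 5 probe sets of Cdc20 stood between -2.64 and 1.76. Over the 7 genes of this group the median was 0.12, with 4 higher and 3 lower than 1-day array b, and it was -0.23 with quantile normalisation, -0.06 with median centring and -0.22 with the intensity trend removed.

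The inhibitors of the kinases were mixed. Cdkn1a (p21), a target of p53, read 3365 at 7 days, against 6495 and 4008 on 1-day arrays a and b, below both 1-day arrays. Cdkn1b (p27), which holds resting cells in G1, read 5386 on the 7-day array, against 4104 on 1-day array a and 6470.4 on 1-day array b, between them. Against 1-day array b these were -0.25 and -0.26, and the dimmer second probe set of each stood at -0.69. Cdkn3, a phosphatase that acts on Cdk2, read 1518 at 7 days, against 1344 and 1206 on 1-day arrays a and b, above b by 0.33 and a by 0.17. Among the INK4 inhibitors of Cdk4 and Cdk6, named after their values were seen, Cdkn2c was at -0.16 and Cdkn2d at 0.06 from 1-day array b. The second Cdkn2c probe set above the filter was opposed, at 0.28, and both were below array a. The second read 622 on the 7-day array, against 3709 and 509 on 1-day arrays a and b. It was below the filter's intensity on the 7-day array and on b. It passed only through array a, so its place below a was favoured by the filter. The INK4 genes Cdkn2a (0.45) and Cdkn2b (0.79) were below the filter. Over the 7 inhibitors the median was 0.06 (-0.12 with median centring), with 4 higher and 3 lower.

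The Cdk genes outside the cell cycle proper held the kinases furthest from 1-day array b among those above the filter. Cdk10 read 1244 on the 7-day array, against 3202 on 1-day array a and 2028 on 1-day array b and was at least 1.5-fold below both 1-day arrays (-0.70 from b and -1.35 from a). A second Cdk10 probe set above the filter read 963 on the 7-day array, against 1162 and 536 on 1-day arrays a and b, which is 0.83 above b, so the gene's probe sets were opposed. Cdk12, a kinase of RNA polymerase II, read 2857 at 7 days, against 3846 and 4308 on 1-day arrays a and b, and its dimmer probe set stood at -1.15 from 1-day array b. Cdk17, of the PCTAIRE group, read 2482 on the 7-day array, against 2902 on 1-day array a and 3337 on 1-day array b, below both. Cdk18, of the same group, was higher than 1-day array b on both its probe sets, by 0.83 and 1.12. Both were below the filter's intensity on b (437 and 373), and array a lifted their means over the filter. The first read 792 at 7 days, against 1413 and 437 on 1-day arrays a and b, so it was below array a, but it turned above a (0.36 to 0.40) and so above both with all 3 other scalings. Cdk5, a kinase of neurons with partners that are not cyclins, read 3467 on the 7-day array, against 1416 on 1-day array a and 3502 on 1-day array b, within 0.01 of 1-day array b, with a sign that turned on quantile normalisation. The 7 kinases of transcription had a median of -0.07, with 2 higher and 5 lower. Apart from Cdk12 they lay between -0.16 (Cdk8, of the Mediator complex) and 0.22 (Cdk11b). A second Cdk11b probe set above the filter was opposed, at -0.44 from b and -1.56 from a. It read 678 on the 7-day array, against 2024 and 929 on 1-day arrays a and b.

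The 5 E2F factors that passed the filter, E2f1 and E2f2 only through array a, lay between -0.24 and 0.28 from 1-day array b. E2f1, an activator of S phase genes, read 651 at 7 days, against 3244 and 662 on 1-day arrays a and b, and E2f4, the main repressor form in resting cells, read 2365 on the 7-day array, against 3090.0 on 1-day array a and 2791 on 1-day array b. Both were below both 1-day arrays, E2f1 by only -0.02 from b. E2f5 and E2f6, named after their values were seen, stood at -0.17 and -0.11. The atypical repressors E2f7 and E2f8 were below the filter and opposed. E2f7 read 126 at 7 days, against 2915 and 378 on 1-day arrays a and b, with differences of -1.47 from b and -4.37 from a. E2f8 read 294 on the 7-day array, against 763 on 1-day array a and 85.9 on 1-day array b, at 1.60 from b and -1.33 from a. Over all genes 10.1% were at least 2-fold higher than 1-day array b and 4.72% at least 2-fold lower, and above the filter 0.865% and 0.443%.

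Among the loading factors, Orc2 and Orc3 read higher than both 1-day arrays and the MCM helicase was mixed. Orc2 read 4995 at 7 days, against 3719 and 3922 on 1-day arrays a and b, and Orc3 read 1876 on the 7-day array, against 1270.3 on 1-day array a and 1383 on 1-day array b. Both were above both 1-day arrays, with 0.35 and 0.44 against b, and the second Orc3 probe set stood at 0.37 from b and -1.28 from a. Over the 6 ORC genes the median was 0.07 (-0.11 with median centring), with 4 higher than 1-day array b (53.8% of all genes). As deposited 3 were above both 1-day arrays (22.7% of all genes), and 2 were with median centring (22.8%). Orc4, Orc5 and Orc6 were at -0.08, 0.11 and 0.03 from b, and Orc1, at -0.11, was near the bottom of the scale. The second Orc5 probe set above the filter was opposed, at -0.56 from b and -1.15 from a. It was below the filter's intensity on the 7-day array (575), and array a lifted its mean over the filter. The second Orc4 probe set above the filter stood at 0.22 from b and 0.11 from a. Of the helicase ring, Mcm4 read 779 at 7 days, against 2271 and 1132 on 1-day arrays a and b, below both (-0.53 from b). Mcm2 read 773 on the 7-day array, against 1127 on 1-day array a and 856 on 1-day array b, below both as well. Mcm3, below the filter, read 568 at 7 days, against 431 and 711 on 1-day arrays a and b. In contrast Mcm7 read 3684 on the 7-day array, against 4630.3 on 1-day array a and 3011 on 1-day array b, higher than b by 0.29 and lower than a. Mcm5 read 1039 at 7 days, against 3119 and 1008 on 1-day arrays a and b, and Mcm6 read 2285 on the 7-day array, against 3090.3 on 1-day array a and 2211 on 1-day array b. The last pair lay within 0.05 of 1-day array b, where the sign depends on the scaling (both -0.14 or -0.13 with median centring). The 6 subunits of 1 ring thus ran from -0.53 to 0.29. Mcm8, of a separate helicase used in DNA repair, was dim and read 112 at 7 days, against 1139 and 189 on 1-day arrays a and b, at least 1.5-fold below both. Mcm10, which helps to start the fork, was below the filter too, with 160.4 on the 7-day array, against 237 on 1-day array a and 675 on 1-day array b. It was lower than both as deposited and between them with the other 3 scalings, and its second probe set stood at -0.22 from b, against -1.97 for the first. Mcm9, the partner of Mcm8, stood at 0.44 from b. Members whose promoter held an E2F word had a median of 0.05 (14 genes, 8 higher than b), and those without one 0.01 (48 genes, 26 higher).

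At the fork, Rpa2 read furthest above both 1-day arrays of the 3 RPA subunits. Rpa2, the middle subunit, which is phosphorylated at stalled forks, read 1578 at 7 days, against 751 and 863 on 1-day arrays a and b. Rpa1, the large subunit that binds DNA, read 3182 on the 7-day array, against 1712 on 1-day array a and 2672 on 1-day array b. Rpa3, the small one, read 1930.1 at 7 days, against 1586 and 2212 on 1-day arrays a and b. Rpa2 was thus higher than b by 0.86 and than a by 1.05, Rpa1 by 0.25 and 0.89, and Rpa3 was between the 1-day arrays. Rpa2 kept its sign with the scalings tried (0.60 to 0.80). With both 1-day arrays limma put Rpa2 at 0.96 ± 1.83 (log2 ± SE, adjusted p = 1.00), so the difference did not pass. The RPA genes are measured by 1 probe set each.

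The clamp and its loader lay close to 1-day array b on the probe sets used. Pcna read 41098 on the 7-day array, against 9646 on 1-day array a and 39597 on 1-day array b, level with 1-day array b within 0.05 (-0.13 with median centring) and far above array a. The 5 RFC subunits lay between -0.35 and 0.14 from 1-day array b. Other probe sets above the filter were opposed to those used, at 0.27 for Rfc1 and -0.48 for Rfc5. Among the polymerases, Pola1, the catalytic subunit of polymerase alpha, read 757 at 7 days, against 1129.7 and 1351 on 1-day arrays a and b and was the lowest member above the filter (-0.82 from b, -0.64 or lower with the scalings tried). Its partner Pola2, below the filter and named after its values were seen, stood at 0.12, and the subunits of polymerase delta above the filter at -0.05 to 0.13. Of nucleotide synthesis, Rrm1, the large subunit of ribonucleotide reductase, read 4112 on the 7-day array, against 4455 on 1-day array a and 4444 on 1-day array b, an even level on the 3 arrays. Tyms, which makes thymidylate, was below the filter with 686 at 7 days, against 546 and 319.8 on 1-day arrays a and b, above both 1-day arrays and 1.06 above b.

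**Figure D3:**
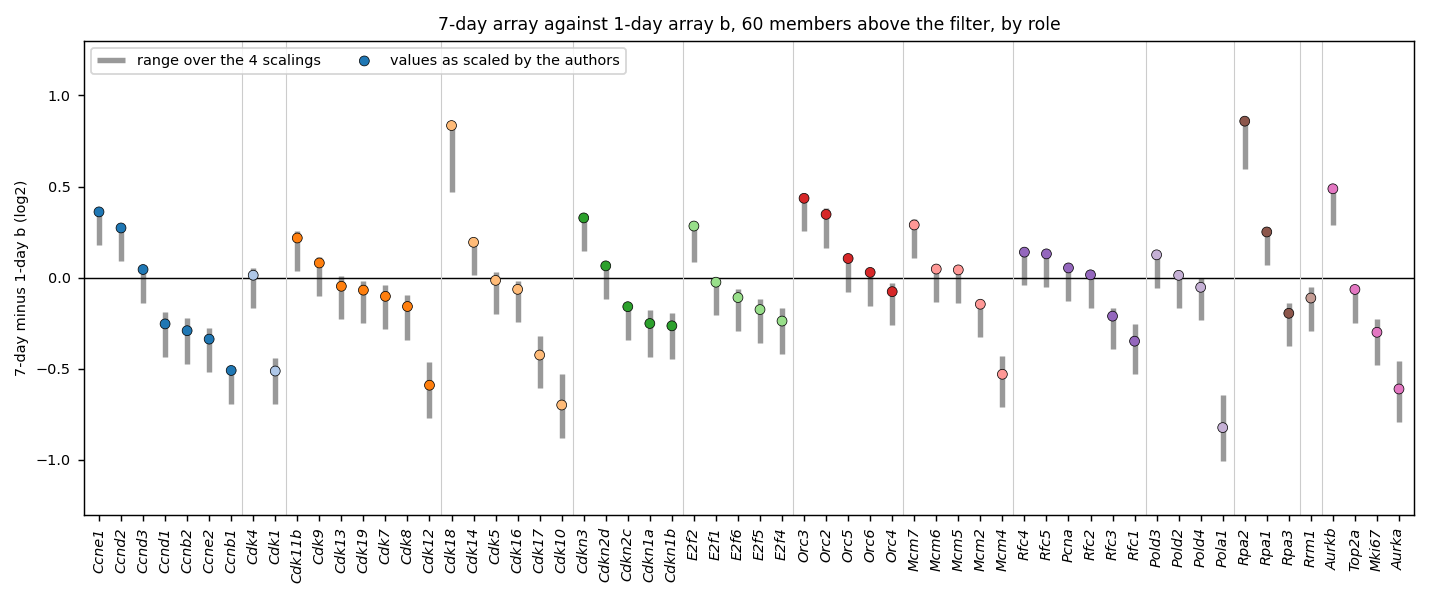
Difference of the 7-day array from 1-day array b (log2) for the 60 members above the filter, ordered by role. Points are the values as the authors scaled them, and grey bars span these and 3 other scalings. Rpa2 and Cdk18 are highest (0.86 and 0.83) and Pola1 lowest (-0.82), with most others within 0.5 of 0. Cdk18 reads below the filter's intensity on 1-day array b (437).

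**Figure D4:**
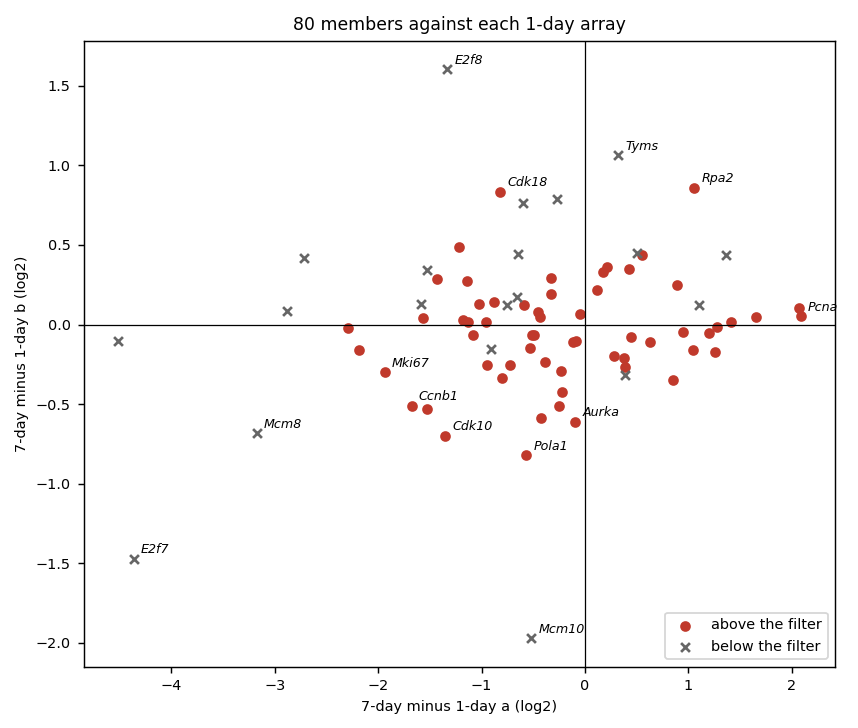
The 80 members by their difference (log2) of the 7-day array from 1-day array a (horizontal) and 1-day array b (vertical), circles above and crosses below the filter. The spread is wider along array a, and Rpa2 lies at upper right, with E2f7 and Cdk10 at lower left.

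Probe sets of the same gene often disagreed, which bounds how far a single reading can be taken. Of the 26 members with several probe sets, 11 had all of them on the same side of 1-day array b and 15 did not. With only probe sets above the filter, 12 members had several, and in 5 they were on the same side. Over all genes with several such probe sets the share was 53.8% of 2131. Among the 5 were Ccnd1, Cdk18 and Orc3, and among those opposed were Cdk10, Cdk11b, Cdkn2c, Orc4, Orc5, Rfc1 and Rfc5. Both Cdk18 probe sets and the second of Cdk10 and of Cdkn2c read below the filter's intensity on 1-day array b.

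**Figure D5:**
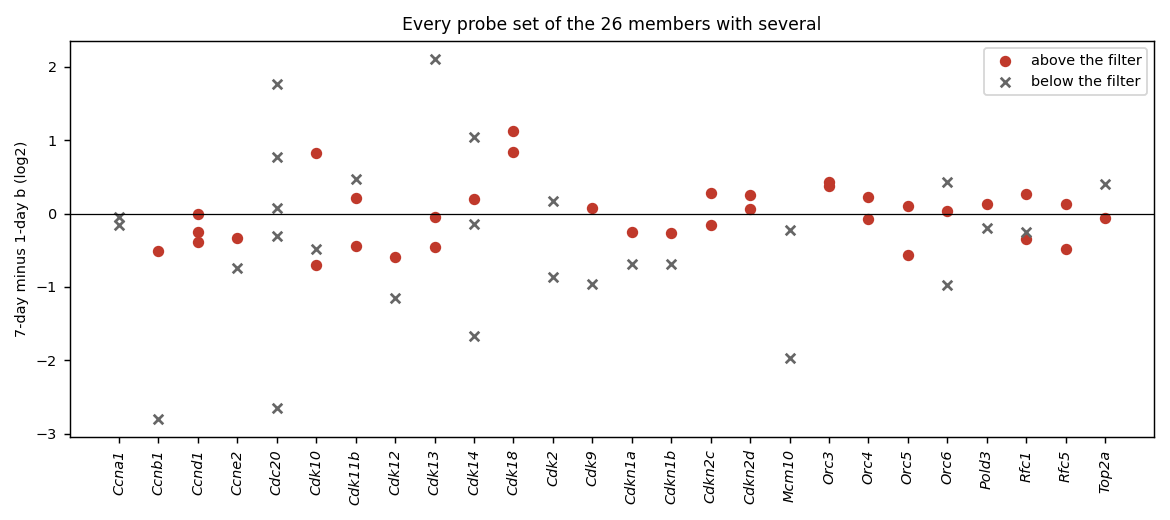
Difference of the 7-day array from 1-day array b (log2) for every probe set of the 26 members with several, circles above and crosses below the filter. Cdk10 has circles on both sides of 0, and the 3 circles of Ccnd1 lie at or below it.

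Genes of the same pathway outside the naming rule were counted in the same way. Of 30 listed S phase genes 23 were measured, with a median of -0.02 from 1-day array b (0.02 with quantile normalisation), 11 higher and 12 lower. As deposited 11 were below both 1-day arrays, against 25.8% of all genes. This was 6 with quantile normalisation (24.3% of all genes), 5 with median centring (14.8%) and 8 with the intensity trend removed (3457 of 14217 genes). The flap endonuclease Fen1 (0.81) and the mismatch repair gene Msh6 (-0.40) were the furthest of those above the filter. Of 31 genes of G2 and mitosis 28 were measured, with a median of 0.03 (-0.09 to -0.15 with the 3 other scalings), 15 higher and 13 lower. Of genes named after their values were seen, Racgap1, of cytokinesis, stood at 1.20 and Cks2, a Cdk1 binding protein, at -0.61. Racgap1 was the 1 gene of this list above the filter to reach 2-fold. It read 988 on the 7-day array, against 1583 and 421 on 1-day arrays a and b. Its value on b was below the filter's intensity, and array a lifted its mean over the filter. Below the filter Birc5 (survivin, of the passenger complex) stood at 2.97, Ttk at 1.28, Cdc25a at 1.04 and Plk1 at -1.43. With Racgap1, 5 of the 28 were thus at least 2-fold from 1-day array b, against 14.8% of all genes. The SD was 0.83, and over all genes it was 0.83 as well. Of 22 genes of growth arrest and of the retinoblastoma and DREAM complexes 19 were measured, with a median of 0.07 and 13 higher (-0.11 and 9 with median centring). Rb1 (0.07) and Rbl2 (0.05) lay close to 1-day array b, and Gadd45g, induced by stress, was higher by 0.52 (39154 on the 7-day array, against 20101 and 27237 on 1-day arrays a and b). In limma 0 genes of these 3 lists passed at an adjusted p under 0.05.

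Markers of the gland's cell types differed between the arrays and are given beside the results, since dividing cells of the gland could be of any type. None of the markers measured was listed at 0. Sums of a list are led by its brightest probe sets and are no RNA amounts, so the counts over single markers stand beside them. In a whole tissue, fewer cells of a type and less RNA per cell cannot be told apart. Against 1-day array b, 9 of 9 adrenal cortex markers read higher on the 7-day array (median 0.37), and their summed level was 1426864 on the 7-day array, against 1963344 and 1093310.3 on 1-day arrays a and b. White blood cell markers read lower in 12 of 15 (median -0.46), with a sum of 66402 on the 7-day array, against 27065 and 74896 on 1-day arrays a and b. Fibroblast markers read lower in 8 of 8 (median -0.41), with a sum of 131776 on the 7-day array, against 37654 and 147630.3 on 1-day arrays a and b. Endothelial markers read higher in 6 of 10 (2 with median centring), with a sum of 57802 on the 7-day array, against 46298 and 62426 on 1-day arrays a and b, and chromaffin markers, all 11 above the filter, in 6 of 11 (2 with quantile normalisation), with a sum of 1182231 on the 7-day array, against 2392543 and 1025002 on 1-day arrays a and b. Array a read higher than b in 5 of 9 cortex markers (median 0.02) and in 4 of 11 chromaffin markers (median -0.69), although both sums were highest on a. Smooth muscle and pericyte markers read lower than 1-day array b in 6 of 7 (median -0.17), with a sum of 37924 on the 7-day array, against 20109.9 and 45704 on 1-day arrays a and b. Schwann and sustentacular cell markers read higher in 4 of 7 (median 0.15, and -0.04 with centring), with a sum of 33775 on the 7-day array, against 29144 and 35807 on 1-day arrays a and b. Red blood cell markers read higher in 2 of 2 (median 0.09, and -0.09 with centring), with a sum of 29047 on the 7-day array, against 5501 and 27914 on 1-day arrays a and b. The part of these cell types in the readings above was not tested.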

How the data were processed

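The deposited table holds single-colour array intensities, 1 value per probe set and array, with 31099 probe sets of which 57 are controls. The authors had scaled each array, since the trimmed mean (2% cut at each end) is 2501 on all 3, and the software was not given in the sources used here. Detection calls were not used here. Each value was taken as log2(intensity + 16). Genes were named from the platform's annotation (20826 probe sets with 1 symbol, 436 with several, 9780 with none), and 20758 symbols were looked up through Entrez identifiers. Probe sets whose log2 mean reached 9.60, the median of all, were tested (15521) with limma 3.58.1 in R 4.3.3. The test had an intensity trend and was two-sided, with Benjamini-Hochberg adjustment. Beforehand the code was tested on simulated data. Those had a smaller spread than the 1-day pair, so they do not show what the test could find here. The other scalings were quantile normalisation, centring on each array's median, and removal of the intensity trend by loess; pseudocounts, filters, fits, probe set rules and left-out arrays were also varied. Genes named with values on every array were the 8 highest and 8 lowest members above the filter against 1-day array b, those at least 1.5-fold beyond both 1-day arrays, and a fixed list of core genes. Members and lists were chosen with earlier results of these data known; the intensity bands, probe set counts, places kept under all scalings and printed promoters were chosen after values were seen. Sequences are from RefSeq, build GRCr8. Tables and figures were made with Python 3.11.15 and matplotlib 3.10.9. The precision is limited by the number of arrays.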

Additional observations from a re-analysis of the deposited data

How the results depend on the processing

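The limma count of 0 members stayed at 0 with the other pseudocounts, scalings, filters and limma options and with 1-day array b as the lone array, and came to 33 with 1-day array a as the lone array, a comparison of that array with the 7-day array and b. Against the averaged 1-day arrays the members' median was -0.24 and turned to 0.28 with each array centred on its median. Leaving out 1-day array a or b gave 0.01 and -0.44, so the value depends on which 1-day array is used. Members at least 2-fold from 1-day array b numbered 4, and 0 with only members above the filter. Members below both 1-day arrays numbered 27, and 12 with each array centred. Against 1-day array b, the sign turned in 8 of the 80 members with quantile normalisation, 19 with centring, 9 with the intensity trend removed, 12 with the mean of a gene's probe sets and 0 with the other pseudocounts. No paired analysis was possible because the groups share only 1 replicate letter. With 1 array at 7 days, the spread at that time is not known, and dim probe sets carry the widest differences.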
